A study of Drosophila melanogaster with 3 samples.

Results

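The regions described here were called for CG3281-GFP in Drosophila melanogaster embryos. They fell in the pericentric parts of chromosome arms 2L, 3L, 3R and X. They were taken from the authors' pooled list of 30000 regions by the position of the summit alone, in dm6 coordinates: above 22000000 on 2L, above 22900000 on 3L, below 4200000 on 3R and above 22000000 on X. These windows hold 105 of the 30000 regions, and the rest of the same 4 arms holds 24324. Of the 105, 17 (16.2%) belong to the authors' optimal IDR set, called reproducible below, against 5290 (21.7%) in the rest of the arms. IDR (irreproducible discovery rate) keeps regions whose ranks hold across replicates, and here the set amounted to the 6565 strongest regions of the pooled list, with a lowest signal of 198.3. The pooled list holds peaks and background as the input for IDR, so a region in it need not be a binding site. Outside the reproducible set lay 88 of the 105, and 6 had a summit that no region of any replicate's list spanned.

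The series measured chromatin binding of CG3281, a C2H2 zinc finger protein, by ChIP-seq with an antibody against GFP. All 3 samples are biological replicates of 1 group: whole embryos of both sexes, 0 to 24 h old, from a transgenic line that carries GFP at the C-terminus of CG3281. Each comparison below therefore sets the pericentric windows against the rest of the same arms within a library, over 3 replicates. An untagged line and the control libraries used in region calling were not analysed here. The signal is the authors' value per region and ranks regions only within a list, and read depth is unknown because the lists hold no counts.

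Pericentric heterochromatin flanks the centromeres and is packed with transposable elements and satellite repeats, on which histone methylation and HP1 keep chromatin compact. It is not empty of genes: in flies a set of essential genes, such as light (lt), concertina (cta) and several ribosomal protein genes, lives there, and some of these genes need the heterochromatic setting for normal expression. Reads from repeats often cannot be placed at 1 position, and how the authors treated such reads is not given in the sources used here.

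Sequences at the sites that the results turn on are shown from the RefSeq genome of the dm6 build (Release 6), 5′ to 3′. The first pair is 101 bases at the 2 strongest pericentric summits, and the next is the reproducible summit inside a mobile element. The last 4 are the 60 bases before the most upstream annotated start of each cytosolic ribosomal protein gene of the windows, of which RpL21 alone had no region in the pooled list. At RpL5 the summit, 2L 22536622, lay 28 bp after another start, farther downstream, so its printed bases are not those before that start. Capitals mark the letters of the motifs searched: TATAAA and CGATA in the first, GAGAG in the second and CGATA (as TATCG) before RpL5 and RpL10. A match is a description of the letters and not a binding site.
l(1)G0196 summit, X:22491292-22491392, + strand: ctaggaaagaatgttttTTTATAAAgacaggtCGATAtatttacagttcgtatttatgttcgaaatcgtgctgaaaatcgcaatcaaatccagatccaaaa
lncRNA:CR43493 summit, X:22488454-22488554, + strand: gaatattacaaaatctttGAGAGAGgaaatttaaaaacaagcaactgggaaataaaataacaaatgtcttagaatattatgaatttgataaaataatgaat
INE-1 element at stnA and stnB, X:23004933-23005033, + strand: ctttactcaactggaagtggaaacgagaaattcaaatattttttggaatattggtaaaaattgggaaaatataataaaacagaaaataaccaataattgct
RpL5 upstream, 2L:22536885-22536944, - strand: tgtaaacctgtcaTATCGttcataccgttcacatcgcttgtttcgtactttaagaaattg
RpL10 upstream, 3L:23095472-23095531, - strand: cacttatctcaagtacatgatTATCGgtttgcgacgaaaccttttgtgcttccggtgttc
RpL15 upstream, 3L:27267195-27267254, + strand: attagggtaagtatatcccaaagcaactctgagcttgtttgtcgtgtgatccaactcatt
RpL21 upstream, 2L:22247876-22247935, - strand: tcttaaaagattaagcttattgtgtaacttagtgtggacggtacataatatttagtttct

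Regions were sparse in pericentric heterochromatin. The windows span 12.5 Mb and the rest of the arms 94.8 Mb, so the pooled list held 8.42 regions per Mb in the windows and 256.6 per Mb in the rest. Replicates 1, 2 and 3 had 119, 165 and 97 regions in the windows, or 9.55, 13.2 and 7.78 per Mb, against 254.4, 254.9 and 257.2 per Mb in the rest. The mean was 10.2 ± 2.78 per Mb in the windows and 256 ± 1.52 in the rest (SD, n = 3). The log2 ratio was -4.68 ± 0.39, a density of 0.0389 times that of the rest, lower in 3 of 3 replicates. The exact sign-flip permutation test gave p = 0.25 (two-sided), the smallest that 3 replicates allow, so no comparison of this kind can pass 0.05 here. The gap was larger than the spread between replicates. In the windows, replicate 2 held 1.70 times as many regions as replicate 3. Each replicate's list holds 30000 regions and most of them lie in the rest, so the narrow spread of the rest is largely set by that number.

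The windows also hold fewer genes and more repeats, and these values move with the density. There were 12.2 protein-coding genes per Mb in the windows and 114.6 in the rest, and 0.691 pooled regions per gene in the windows against 2.24 in the rest. Lower-case bases, which the reference marks as repeats, made up 39.6% of the windows and 17.4% of the rest. Annotated mobile elements made up 11.0% of the windows and 3.99% of the rest. With lower-case and unknown bases taken out of the length the density ratio over replicates was 0.0546, and per gene in place of per Mb it was 0.366. The density was thus lower in the windows on all 3 scales. The part of read placement in it was not tested.

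**Figure D1:**
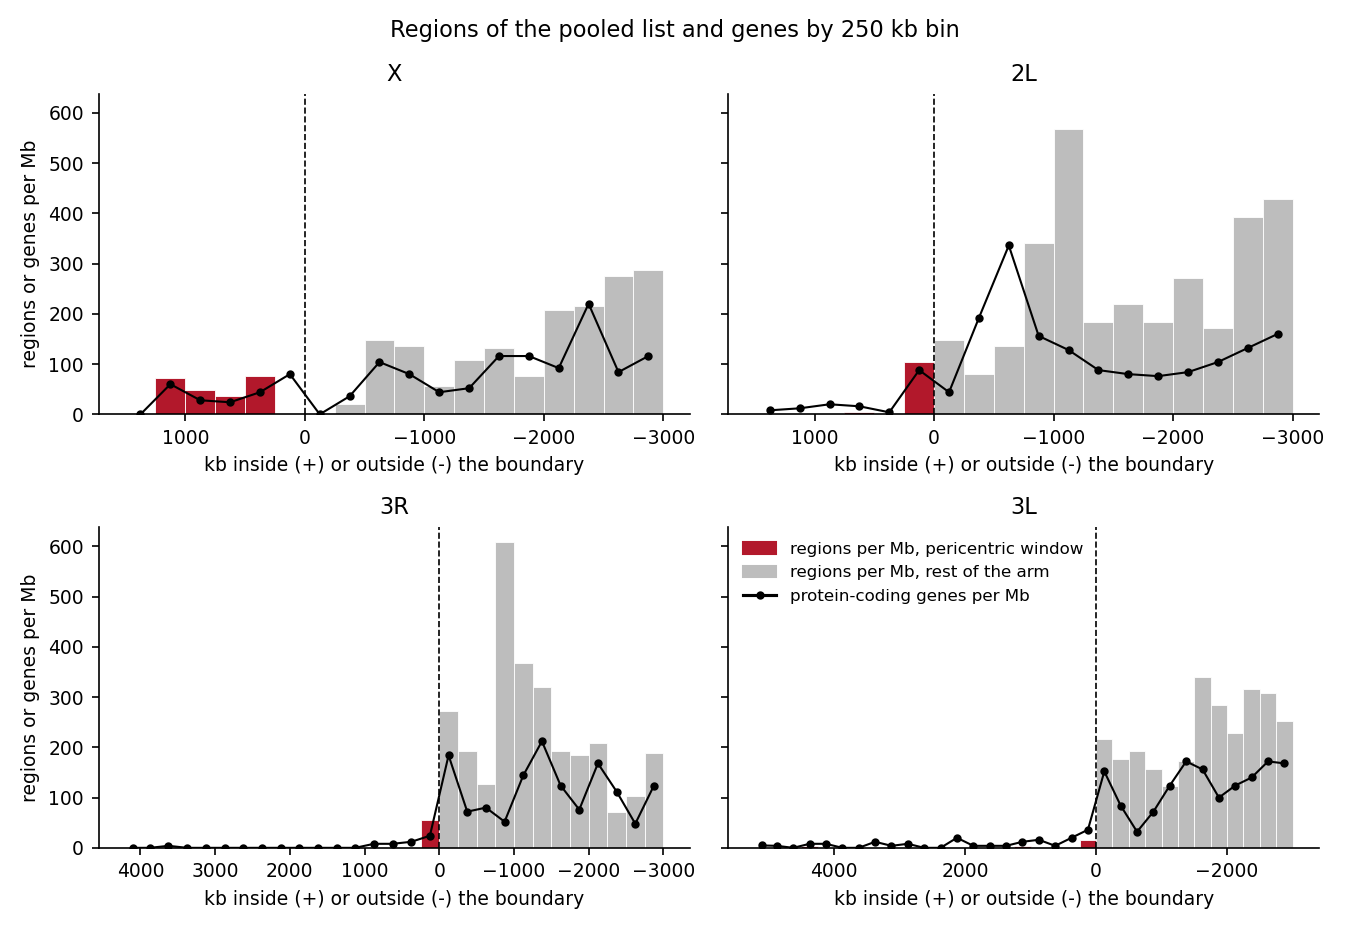
Regions of the pooled list per Mb (bars) and protein-coding genes per Mb (black line) in 250 kb bins, against the distance from the window boundary in kb, with the windows in red on the left and the rest of the arm in grey on the right. On 3R and 3L regions and genes both thin out inside the boundary. On 2L genes rise from 44 per Mb in the last bin outside to 88 in the first bin inside, while regions fall, and both are sparse beyond it. On X the bin on either side of the boundary holds no region.

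The arms differed. X held 58 of the 105 regions, 2L held 27, 3R held 14 and 3L held 6. In the pooled list the X window had 37.6 regions per Mb against 225 in the rest of X, and the 2L window had 17.8 against 258. The 3R window had 3.33 per Mb against 251 in the rest of 3R, and the 3L window had 1.15 against 292. By replicate, the X window held 57, 65 and 65 regions and the 3L window 9, 30 and 2, so that replicate 2 held more 3L regions than both other replicates together. Without X the density ratio over replicates was 0.0200, and without 3L it was 0.0632, a shift of more than 1.5 times by either arm.

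Density changed with the distance from the boundary. Inside the windows, the first 500 kb held 31.5 regions per Mb, the next 500 kb 11.0, the stretch of 1000 to 2000 kb 6.22, and everything deeper 0.185. Outside, the last 500 kb before the boundary held 138 per Mb, the 500 kb before that 230.5, and the stretch of 2000 to 5000 kb away 239. So 63 of the 105 regions lay within 500 kb of the boundary and 20 lay more than 1000 kb inside it. The stretches mix the arms, and X alone showed no steady fall. Its successive 250 kb bins up to 1250 kb held 0, 76, 36, 48 and 72 regions per Mb. The last of these bins held 18 of the 20 regions more than 1000 kb inside. The 2L and X windows are 1.51 and 1.54 Mb long, so only 3L and 3R reach beyond 2000 kb. The 3 replicates gave 37.3 ± 10.3 per Mb in the first 500 kb inside and 137.3 ± 15.8 in the last 500 kb outside (SD, n = 3), and these ranges did not overlap. Boundaries set 200 kb nearer the centromere left 62 regions and a density ratio over replicates of 0.0254, and boundaries 200 kb farther from it gave 220 regions and 0.0705. Genes thinned out over the same bins, with 38.5 per Mb in the first 500 kb inside and 95.5 in the last 500 kb outside. Pooled regions per gene were 1.45 in the last 500 kb outside. Inside they were 0.818, 0.710 and 0.731 in the 3 stretches up to 2000 kb, and 0.0556 deeper.

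The X window had a gap of its own. From 100 to 300 kb inside the boundary it carries 21 protein-coding genes, and no region of the pooled list or of any replicate's list had its summit there. All of these genes lie on the + strand, and CG46504 to CG46522 make up most of them. They have near-equal lengths and mostly near-equal steps, with CG46504, CG46505 and CG46506 starting at 22147789, 22152842 and 22157887. Such a layout is that of genes repeated in tandem, though their sequences were not compared. The lower-case share of that stretch was 28.7%, and that of the X window as a whole 32.6%. Its first region lay 443.5 kb inside the boundary, near CG14621, and the nearest one outside lay 368.3 kb away at DIP1. Whether the genes of the gap are copies of each other, and whether reads could be placed there, was not tested.

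The boundaries were set by position. Just inside lay regions in tio on 2L (signal 106.2, 24.6 kb), at Mes2 on 3L (52.67, 45.4 kb), at beta-Man on 3R (203.7, 2.64 kb) and near CG14621 on X (179.3). Just outside lay regions in CG11629 on 2L (58.59, 113.5 kb), slif on 3L (85.25, 9.12 kb), CG14636 and aux on 3R (367.4, 14.2 kb) and near DIP1 on X (460.8). Of these, beta-Man inside and the 3R and X regions outside were reproducible.

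Signal was also lower in the windows in all 3 replicates. The strongest pericentric region had a signal of 569.1 and rank 1563 in the pooled list, so 0 of the 105 stood among its strongest 1000. The rest of the arms reached 7908. Among reproducible regions the median signal was 254 in the windows and 340 in the rest. To compare replicates, each signal was divided by the median of its own list, and a region was called strong when it was among the strongest 6565 of that list. Strong regions made up 10.1%, 9.09% and 15.5% of the windows' regions in replicates 1, 2 and 3, a mean of 11.5 ± 3.43% against 21.8 ± 0.141% in the rest (SD, n = 3). The median relative signal was 0.871 ± 0.0218 in the windows and 1.00 ± 0.00363 in the rest, and in the pooled list 0.960 and 1.00. Both were lower in the windows in 3 of 3 (exact sign-flip permutation test, two-sided, p = 0.25 each, the smallest possible). The rest makes up most of each list, so its values and their small SDs are largely set by the list's own cut and median.

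**Figure D2:**
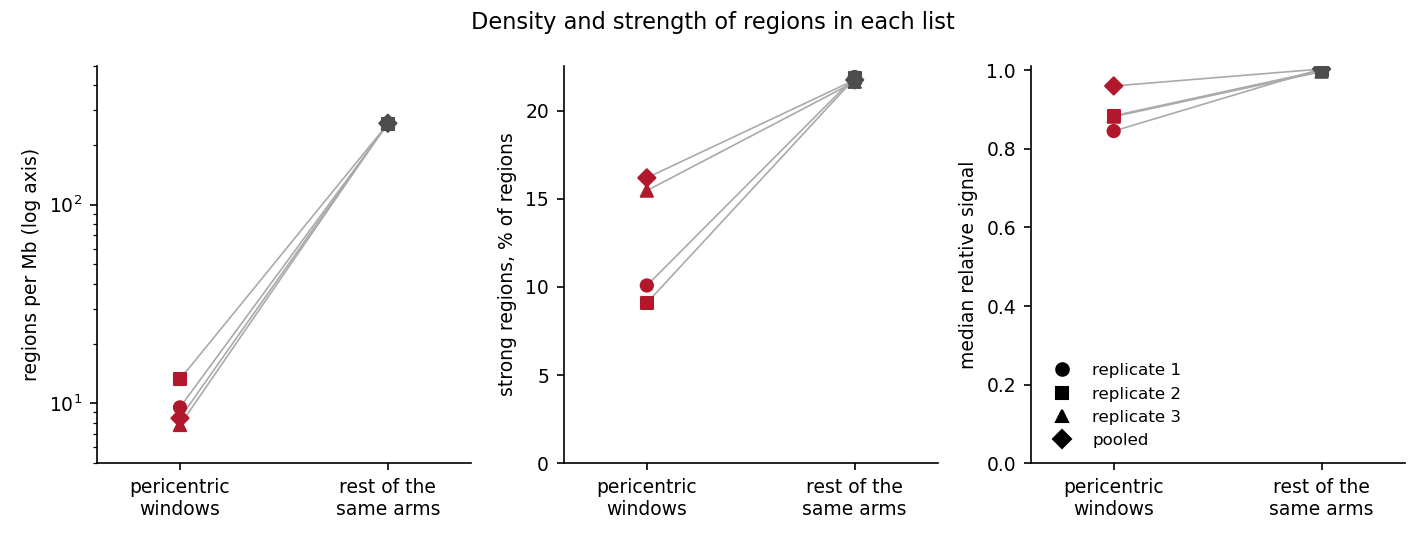
Regions per Mb on a log axis, strong regions as a percentage of regions, and median relative signal, in the pericentric windows (left, red) and the rest of the same arms (right, grey), with 1 symbol per list and a line joining the values of a list. In all 4 lists each value is lower in the windows. The rest makes up most of each list, so its narrow spread is largely set by the list size, the cut for strong regions and the list median.

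The strongest pericentric regions came from the X. A region at l(1)G0196, which encodes an inositol phosphate kinase, spans X 22491195 to 22491444, with its summit inside the gene and 253 bp before an internal start. Its signal was 569.1, and it stood at 4.91, 5.78 and 4.24 times the list median in replicates 1, 2 and 3 (4.98 ± 0.773, SD, n = 3). A second region, in an intron of the same gene and at lncRNA:CR43493, had a signal of 468.8 and stood at 4.36, 3.97 and 4.15 times the median (4.16 ± 0.196). These regions were strong in all 3 lists, and the second had the smaller spread although 60.4% of its 101 bases were lower case. Another in the gene, at 250.3, stood at 1.83, 2.45 and 2.50 times the median and was strong in 2 lists.

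The start of CG14615, which lies next to that of tilB, a gene needed for motile cilia, had a region with a signal of 391.8, ranked next after those of l(1)G0196. Its summit lay 14 bp after the CG14615 start, within 500 bp of the tilB start, and it stood at 3.10, 3.79 and 3.26 times the list median (3.38 ± 0.358, SD, n = 3). FucTC, a member of the fucosyltransferase family by its name, had a region of 332.9 in its 5' UTR, 1011 kb inside the boundary, at 2.81, 3.36 and 2.80 times the median. Both were strong in all 3 lists, and their replicates lay close together.

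Nearby, the stoned locus (stnA and stnB), whose products act in synaptic vesicle recycling, had 2 reproducible regions. The one 335 bp before its start had a signal of 249.7 and lay inside an INE-1 transposable element, with 65.3% lower-case bases. It stood at 2.27, 2.06 and 2.08 times the list median (2.14 ± 0.121, SD, n = 3), the smallest SD of the 13 reproducible members found in all 3 lists. The other lay 2810 bp before the start, had a signal of 199.8 and 79.2% lower-case bases, and was strong in 1 list.

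Other reproducible X regions lay at CG12576 (269.5), in introns shared by CG17159 and CG17162 (265.4), in an intron of CG42346 that overlaps fog (254.0) and in Cda4 (203.8), which belongs to the chitin deacetylase family. fog encodes a secreted ligand that drives apical constriction at gastrulation. The CG12576 region stood at 1.43, 2.75 and 2.69 times the list median and that of CG17159 and CG17162 at 1.56, 3.09 and 1.93. Both were low in replicate 1. The Cda4 region was low in replicate 2, at 1.95, 1.19 and 2.00 times the median.

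Ribosomal protein genes gave 3 of the 6 reproducible regions outside X. The windows hold 4 cytosolic ribosomal protein genes, and RpL5, RpL10 and RpL15 had a reproducible summit near a start, against 59 of 66 in the rest of the arms. RpL21 had no region in the pooled list, and neither did mRpS5, the one mitochondrial ribosomal protein gene of the windows, against 31 reproducible of 60 in the rest. The list of replicate 2 alone had a region near a start of each, at rank 11183 for RpL21 and 24402 for mRpS5. The summits lay 28 bp after a start at RpL5, 25 bp after at RpL10 and 64 bp after at RpL15. With 4 genes, these counts describe the list and give no test.

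The 3 genes differed in how the replicates stood. RpL10 on 3L, with a signal of 309.0, was found in all 3 lists, at 2.14, 4.04 and 1.63 times the median (2.60 ± 1.27, SD, n = 3). RpL5 on 2L, at 251.6, was absent from the list of replicate 1 and stood at 2.16 and 2.61 times the median in replicates 2 and 3. RpL15, at 198.7, was the deepest region of the pooled list, 4367 kb inside the 3L boundary. It stood at 1.25 and 1.38 times the median in replicates 1 and 2, was absent from the list of replicate 3 and was strong in none. The high value of RpL10 was that of replicate 2 alone, and RpL15 sat just above the lowest signal of the reproducible set.

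The remaining reproducible regions outside X were in CG42748 (260.8) and at Clamp (208.4) on 2L, and at beta-Man on 3R. Clamp encodes a zinc finger protein that binds GA-rich DNA and takes part in dosage compensation, and beta-Man is named for beta-mannosidase, a lysosomal enzyme. The CG42748 region stood at 3.43, 2.61 and 1.62 times the list median. Clamp stood at 1.80 and 1.64 times in replicates 1 and 2, and beta-Man at 1.10 and 2.19 times, and both were absent from the list of replicate 3. Clamp was strong in no single list.

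**Figure D3:**
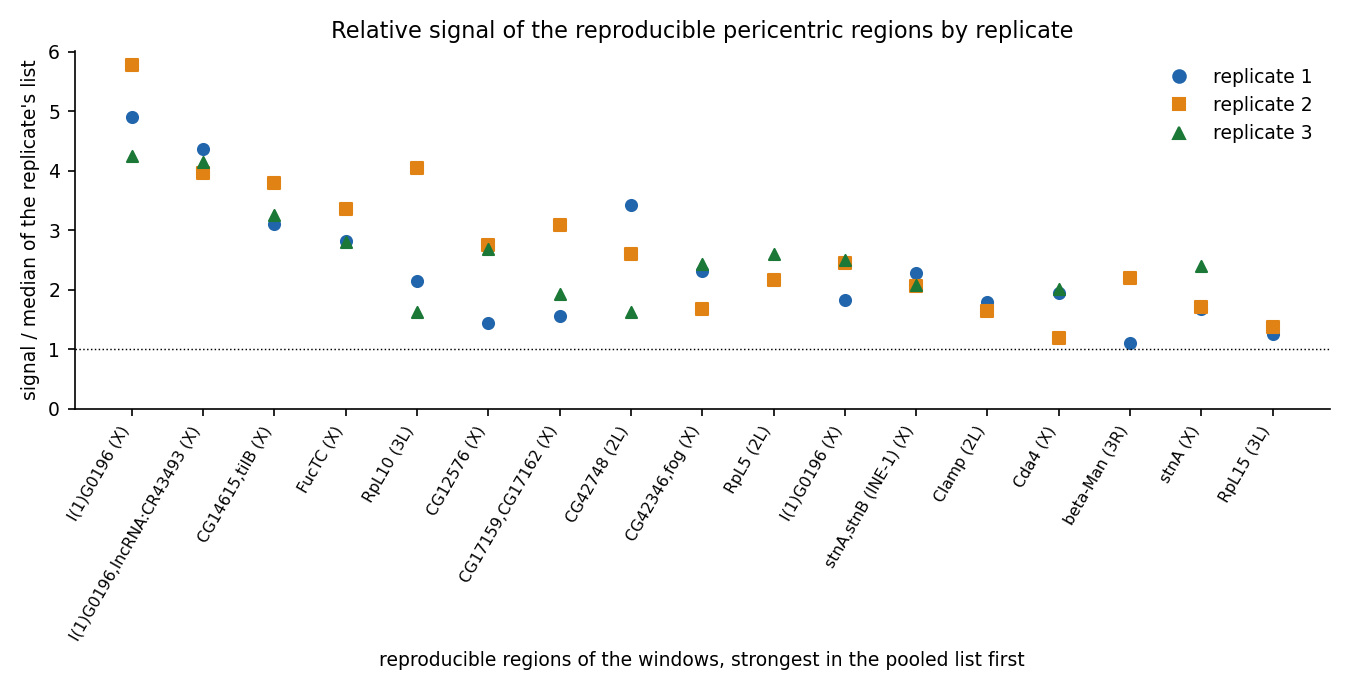
Signal divided by the median of the replicate's list for the 17 reproducible regions of the windows, strongest in the pooled list first, with a symbol for each replicate that has a region spanning the pooled summit. The first region sits between 4.24 and 5.78, and RpL5, Clamp, beta-Man and RpL15 lack 1 symbol each.

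Just below the reproducible set, the strongest pericentric regions were at Usp2 (190.3), a ubiquitin-specific protease gene, near CG14621 (179.3) and in lncRNA:CR44997 (177.8), all on X. The Usp2 region stood at 2.37 and 2.10 times the list median in replicates 2 and 3, was strong in both, and its summit was spanned by no region of replicate 1. The strongest regions of 3L also include nrm, a cell adhesion gene, at 161.0, and those of 3R include CG12581 at 152.7 and Gfat1, which starts the hexosamine pathway, at 122.0. On 2L another CG42748 region followed at 162.9.

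**Figure D4:**
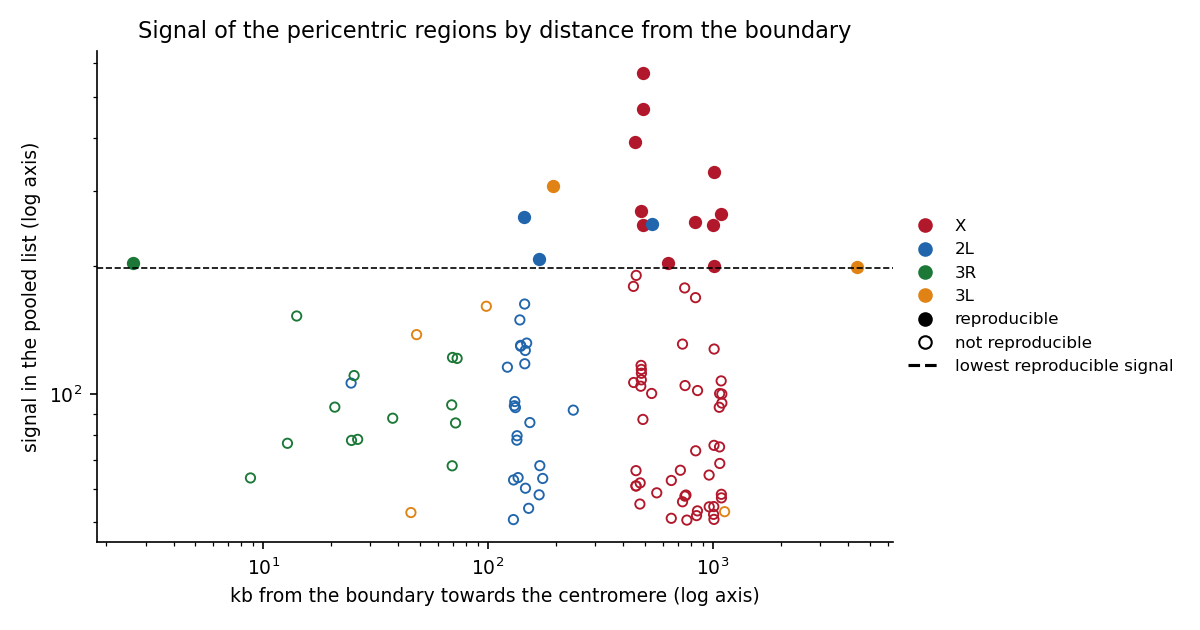
Signal of each of the 105 regions in the pooled list against its distance from the window boundary in kb, both on log axes, coloured by arm, with filled symbols for reproducible regions and a dashed line at the lowest reproducible signal, 198.3. The X regions lie beyond 443.5 kb and include the highest signals, and RpL15 is the single region past 2000 kb.

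Support by the single replicates was counted for each pooled region. A region of the replicate's list spanned the pooled summit for 69, 78 and 71 of the 105, a mean of 69.2 ± 4.50% against 73.6 ± 3.65% in the rest (SD, n = 3), values that overlap. All 3 lists had the region for 41 of the 105 (39.0%), against 46.5% in the rest. Of the 17 reproducible regions 13 (76.5%) were in all 3 lists, against 95.4% in the rest, and 5 (29.4%) were strong in all 3, against 63.7%. Those 5 were the 2 strongest at l(1)G0196, the one at CG14615 and tilB, FucTC and the INE-1 element at stnA and stnB. All of them lie on X. The pooled list contains the replicates, so these shares are no independent check. The reproducible regions of the windows were also weaker, with a median signal of 254 against 340 in the rest. Support at matched signal was not compared.

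Members were clustered and not independent of each other. Of the 105, 35 overlapped another, and gaps of up to 5 kb joined them into 37 loci, of which 18 held a single region and 13 held a reproducible one. The largest locus held 19 regions at CG42748, dunk and CycK on 2L, with 1 reproducible. CycK encodes a cyclin that acts with a kinase of RNA polymerase II, and dunk takes part in cellularization. The next had 8 regions each, at CG12576 and CG14618 and at stnA, stnB, FucTC, Coa7 and Rab21, with 1 and 3 reproducible.

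The share of summits at promoters was higher in the windows than in the rest in all 3 replicates. In the pooled list, within 500 bp of a protein-coding start were 46 of the 105 summits (43.8%), against 27.3% in the rest, and in introns 24.8% against 46.1%. Intergenic summits made up 18.1% in the windows and 21.7% in the rest, and 5' UTR summits 4.76% against 0.835%. Over the replicates, the promoter share was 37.5 ± 2.82% in the windows and 28.1 ± 0.357% in the rest (SD, n = 3), higher in 3 of 3 (exact sign-flip permutation test, two-sided, p = 0.25, the smallest possible). The difference of 9.42 percentage points was 3.39 with a promoter reach of 250 bp and 14.2 with 1000 bp. Among reproducible regions, 9 of 17 (52.9%) lay at promoters, against 44.8% in the rest. Of those 9, 6 lay after the nearest start, against 26.2% in the rest. The median position over all 9 was 25 bp after the start, against 96 bp before it in the rest.

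Repeats and mobile elements were read at the summits. The base at the summit was lower case for 20 of the 105 (19.0%) and for 19.3% in the rest, while lower-case bases made up 39.6% of the windows' sequence. Over the replicates it was 21.5 ± 3.01% in the windows and 18.9 ± 1.56% in the rest (SD, n = 3), higher in 3 of 3 by 2.65 ± 1.45 percentage points (exact sign-flip permutation test, two-sided, p = 0.25, the smallest possible). With the boundaries set 200 kb farther out the sign turned, at -1.40 points, and with boundaries 200 kb nearer the centromere the difference was 5.36 points. The lower-case share of the 25 bp on either side differed by 1.29 points, not in the same direction in all 3 replicates (exact test, p = 0.5). In annotated mobile elements lay 6 of the 105 summits (5.71%), against 0.296% in the rest, and over the replicates 7.76 ± 1.35% against 0.311 ± 0.0264%. These elements made up 11.0% of the windows' sequence and 3.99% of the rest, so summits fell below the sequence share in both parts. Of the 6, 5 were INE-1 elements and 1 was an FB element in l(1)G0196, and only the INE-1 at stnA and stnB was reproducible.

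Few pericentric genes carried a summit. Of 152 protein-coding genes with a start in the windows, 11 (7.24%, exact 95% interval 3.67 to 12.6, counting error only) had a reproducible summit within 500 bp, against 25.1% of 10861 in the rest. The 152 include the 21 genes of the X gap, and without these the share was 8.40%. Any region of the pooled list was at 36 of the 152 (23.7%), against 48.0% in the rest. The 11 were l(1)G0196, tilB, CG14615, RpL10, CG12576, RpL5, stnA, stnB, Clamp, beta-Man and RpL15, with tilB and CG14615 at 1 summit and stnA and stnB at another. Among genes with any region, 30.6% had a reproducible one in the windows and 52.3% in the rest. Using each replicate's strong regions, 3.95%, 7.24% and 5.92% of the windows' genes were marked, a mean of 5.70 ± 1.66% against 25.4 ± 1.19% in the rest (SD, n = 3), and the ranges did not overlap. Asking for a match among the strong regions of 2 replicates, with the other left out, gave 3.29% to 4.61% in the windows, lowest without replicate 2, and 19.4% to 20.2% in the rest.

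By arm, 6 of 59 genes of the X window had a reproducible summit, against 2 of 37 on 2L, 2 of 42 on 3L and 1 of 14 on 3R. More than 1000 kb inside the boundary, 11 of 44 genes had a region and 3 a reproducible one, stnA, stnB and RpL15, against 25 and 8 of the 108 nearer genes.

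**Figure D5:**
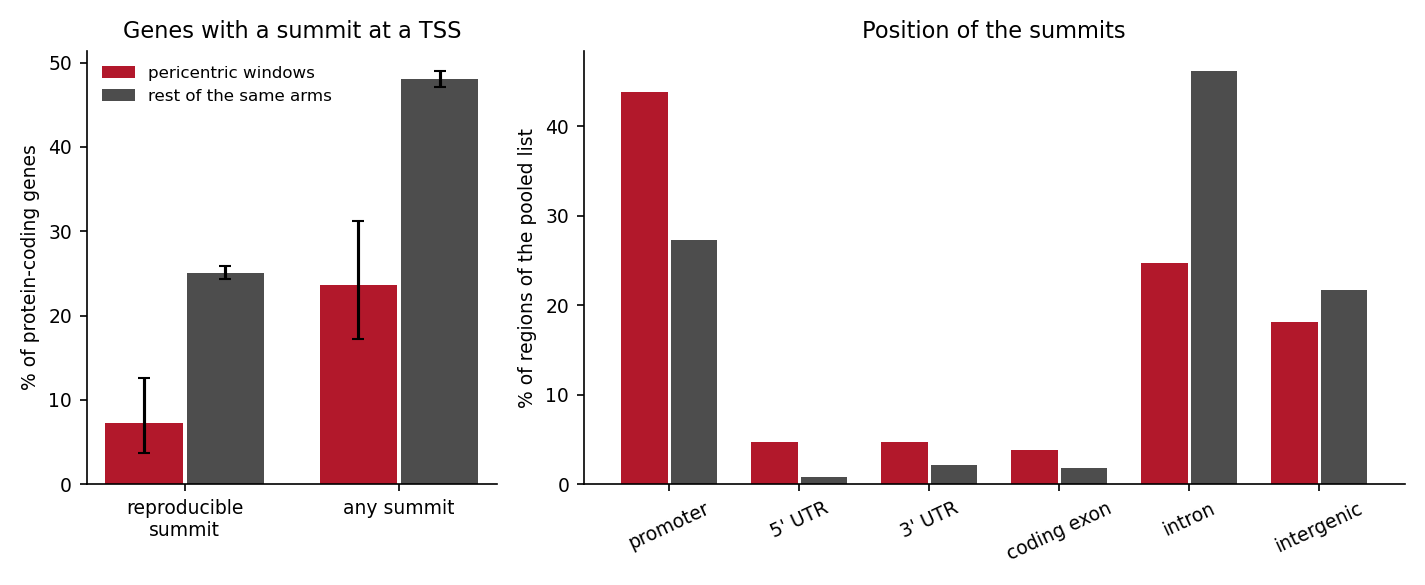
Left, protein-coding genes with a reproducible or any summit within 500 bp of a start, as a percentage with exact 95% intervals, in the pericentric windows (red, left bar) and the rest of the same arms (grey, right bar). Right, the percentage of summits of the pooled list by position in the same order of groups, with 43.8% at promoters in the windows against 27.3% in the rest.

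Genes long known from heterochromatin were counted as a list. Of 27 such names, 21 have a start in the windows, and 5 (23.8%) had a pooled region near a start, beside 23.7% of all genes of the windows and 48.0% in the rest: RpL5, RpL15, nrm, fog and su(f), which encodes a subunit of the machinery that cleaves mRNA 3' ends. RpL5 and RpL15 were the 2 with a reproducible one, 2 of 21 (9.52%), beside 7.24% of all genes of the windows and 25.1% in the rest. Both shares of the list lay near those of the windows' genes as a whole. The region of nrm had a signal of 161.0, that of fog 102.0 and that of su(f) 100.1. The other 16 had no region of the pooled list at a start or in the gene, and of these MED21, a Mediator subunit gene, had one near a start in the list of replicate 2. The 16 include lt, a vesicle trafficking gene, cta, a G protein subunit acting downstream of fog, AGO3, a piRNA pathway Argonaute, vtd, the cohesin subunit Rad21, Set1, a histone methyltransferase, and nvd and spok, which act in ecdysone synthesis.

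Base composition and short motifs were read in the 101 bases centred on each summit. The median GC content was 38.6% in the windows and 38.6% in the rest, and among reproducible regions 33.7% and 32.7%. Of 12 motifs searched on both strands, CGATA was in 9.52% of the windows' summits against 13.5% in the rest, and GAGAG in 15.2% against 10.8%. TATAAA was in 17.1% against 16.2%, AAAAAAAA in 8.57% against 5.85%, CAGGTA in 1.90% against 1.98%, CAGCTG in 2.86% against 4.37%, GGTATTT in 2.86% against 2.43% and CACACACA in 1.90% against 2.39%. GGTCACAC was in 1 of 105, against 0.625%. TATCGATA, which contains CGATA, was in 0 of 105, against 0.740% in the rest, and the pericentric satellite words AATATAATAT and AAGAGAAGAG were in 0 of 105, against 0.366% and 0.0411%. A count of 0 of 105 allows a share of up to 2.86%, so these absences were not distinguishable from the rest at this number of regions.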

How the data were processed

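ChIP-seq was done by the submitters on embryos of 1 group with 3 biological replicates, per the labels. Per the deposited text notes, the authors called a list of regions for each replicate and for the pooled replicates against a control, and derived the optimal IDR set from these lists, for dm6 and again for dm3. Neither the aligner nor the peak caller is named, and the IDR cut-off is not given in the sources used here. Each region's signal is the authors' value as deposited, and its scale differs between lists. The authors also deposited a −log10 q-value per region, which was not used to rank or choose regions. Read depth is unknown, and the intervals given cover counting error only.

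A summit is the deposited start plus the deposited offset, given 1-based in dm6. Gene models came from Ensembl release 115 and mobile elements and sequence from the RefSeq assembly with FlyBase release 6.54 annotation, both of the same assembly. A summit within 500 bp of a protein-coding TSS was at a promoter. Motifs, GC content and lower-case shares were read within 50 bp of the summit on each side. Strong regions were the strongest 6565 of a replicate's list. A replicate value came from the strongest region of its list that spans the pooled summit. Windows were compared with the rest of the arms by an exact sign-flip permutation test over the 3 replicates, and shares of genes have exact Clopper-Pearson 95% intervals. The tools were pandas 2.3.3, scipy 1.17.1, numpy 2.4.6 and matplotlib 3.10.9 under Python 3.11.15. The counting code was tested on simulated regions.

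Named genes are those at the 20 strongest reproducible regions (17 exist), the 3 strongest of each arm, those next to the boundaries, the 3 strongest outside the reproducible set, and list genes with a region; other genes of the larger loci and list genes with no region were chosen after their values were seen. Of the 27 textbook names, Cht3 and Parp were matched to their newer symbols Cht10 and Parp1. Members, lists and tests were chosen with earlier results of these data known. Alternatives were other boundaries, 1 summit per interval, length without repeats, other TSS and repeat windows, the stronger 3282 regions, a 50% overlap and each replicate left out. Leaving out each arm, density per gene and gene shares without the X gap were chosen after seeing the data. The dm3 lists were used for counts only.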

Additional observations from a re-analysis of the deposited data

Results flagged for a closer look

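The dm3 lists, which enter no comparison above, hold regions on the sequences that this older assembly names Het, separate scaffolds of heterochromatin. The dm3 pooled list had 11 regions there, of which 10 were on XHet and 1 was in the dm3 IDR set, with a signal of 262.2 and rank 4346. The lists of replicates 1, 2 and 3 had 15, 22 and 15, of which 12, 11 and 13 were on XHet. This was marked because the dm3 lists enter no comparison, with no control sample to set them against. It need not be further signal. The highest Het signals in replicates 1, 2 and 3 were 52.6, 119.0 and 83.9. The dm6 region in CG17159 and CG17162 had close values, 265.4 in the pooled list and 53.1, 119.8 and 84.6 in the replicates. Whether the 2 are the same site was not tested. The sequences of the dm3 scaffolds were not used here, so these regions were not placed on dm6.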

How the results depend on the processing

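Region density, share of strong regions, median relative signal and promoter share kept their direction under every alternative run, though the difference in promoter share of 9.42 percentage points was 3.39 with a TSS window of 250 bp and 14.2 with 1000 bp. The difference in repeat share reversed, from 2.65 to -1.40 percentage points, with boundaries 200 kb farther from the centromere, and was 5.36 with boundaries 200 kb nearer it and 1.29 for 25 bp on either side of the summit; the cause was not tested. The share of the windows' genes with a reproducible summit, 7.24%, was 13.1% with the farther boundaries, 3.29% with a TSS window of 250 bp, 1.97% with the stronger 3282 regions, and 3.29% to 4.61% with each replicate left out, where a match in both others was required. The density ratio of 0.0389 lay between 0.0337 and 0.0441 with each replicate left out, the lowest without replicate 2, and was 0.0331 without 2L and 0.0504 without 3R. No alternative could pass 0.05, since 3 replicates give no p below 0.25 and 2 none below 0.5. No paired analysis was possible because the series has 1 group, so no second group shares its replicate numbers; the windows and the rest were compared within each replicate throughout. The 105 regions include 35 that overlap another, so they are not independent, and 17 reproducible regions give wide intervals on any share.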
